A study of Rattus norvegicus with 15 samples.

Results

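The microRNAs (miRNAs) miR-505, miR-31 and miR-203 were taken from a survey of rat liver that regenerated after partial hepatectomy (PHx), the surgical removal of part of the liver. They were chosen by their measured levels, which were lower after surgery in these same arrays, miR-505 and miR-31 at 24 h and miR-203 and miR-31 at 1 h. They are 3 of the 350 miRNAs on the array, with 8 of its 938 probes, and all 3 passed the filter on dim probes that left 134 miRNAs for testing. Because the arrays before PHx and those at 1 and 24 h picked them, every change against the liver before PHx is given below as a description without a test.

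The study measured 15 single-colour arrays of rat liver, each carrying RNA pooled from 4 animals. The groups, by diet and time, were as follows. EtOH rats had been fed ethanol chronically, and CHO rats were their pair-fed controls, given carbohydrate in its place. The sources used here do not give strain, sex, age or the share of liver removed. Before PHx there were 3 EtOH and 4 CHO pools, and after PHx each diet had 1 pool at each of 1, 6, 12 and 24 h. The same 4 animals gave the liver before and after surgery for 7 of the 8 pools, and the array before PHx of the EtOH 24 h pool was not analysed here. Within each diet, 1 animal identifier occurs in both the 1 h and the 6 h pool. The sample titles mark the arrays before PHx as LLM and those after it as PHx. No group without surgery was sampled at the later times. PHx, the time passed and the part of the liver sampled therefore cannot be told apart in any change after PHx.

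A miRNA guides the Argonaute complex to messenger RNAs that pair with its seed, bases 2 to 8 from its 5′ end, and lowers their translation or stability. After partial hepatectomy the hepatocytes of the remaining lobes leave quiescence and divide, and long ethanol feeding is known to delay this in rats. miR-203 is best known from mouse epidermis, where it restrains the proliferation of progenitor cells by repressing p63, and miR-31 from skin and from human tumours, where its role differs between tumour types.

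The mature sequences are printed to show that the 3 miRNAs have different seeds, in capitals. They come from RefSeq (build GRCr8), where all 3 names were matched. The array names carry no arm, and the arm shown is the one that the older naming used without a suffix. The probe letters are not part of the files used here, so which end of the hairpin a probe reads was not checked.
rno-miR-505-3p: gUCAACACuugcugguuucc
rno-miR-31a-5p: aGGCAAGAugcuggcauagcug
rno-miR-203a-3p: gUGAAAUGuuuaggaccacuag
rno-miR-505-3p is at chrX:143778784-143778803 on the minus strand. rno-miR-31a-5p is at chr5:108714906-108714927 on the minus strand, within a long noncoding RNA gene (LOC130062807). rno-miR-203a-3p is at chr6:137020756-137020777 on the plus strand. None of the 3 seeds occurs at bases 2 to 8 of any other of the 693 mature rat miRNA names in the table, so the members form 3 seed groups of 1.

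Each of these loci also carries an annotated miRNA on the opposite strand, shown because its letters are the antisense of the member. It is rno-miR-3589 across all 20 bases of rno-miR-505-3p, rno-miR-31b across 19 of the 22 bases of rno-miR-31a-5p, and rno-miR-203b-5p across 20 of the 22 bases of rno-miR-203a-3p. None of these 3 opposite-strand miRNAs is among the array's 350 rows.
rno-miR-3589: gAGGAAACcagcaaguguugac
rno-miR-31b: cUAUGCCAgcaucuugccu
rno-miR-203b-5p: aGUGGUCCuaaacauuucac

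The arrays detected between 108 and 131 miRNAs each, where detected means that at least a share of 0.5 of a probe's spots stood well above background. The hepatocyte miRNA miR-122 was detected on 15 of 15 arrays, which fits the liver label, and the 4 muscle miRNAs looked for (miR-1, miR-133a, miR-133b and miR-206) were detected on none. EtOH before PHx replicate 3 stood apart. It was the dimmest array, with a 75th percentile of probe signal of 236.5 where the others reached up to 515.5, and its spots scattered most, where the coefficient of variation between spots of a probe had a median of 36.6%, while on no other array did it leave the range of 6.75% to 8.63%. Spots of the members scattered there too, by 54.9% for miR-505, 41.8% for miR-31 and 26.0% for miR-203. The changes after PHx, the diet differences, the spread and the likeness between miRNAs are given with and without EtOH before PHx replicate 3. CHO 12 h was the array least like any other, with a highest r with another array of 0.9698. That of EtOH before PHx replicate 3 was 0.9886, and no other array was below 0.994. CHO 12 h was kept in the 12 h values below. Without it the difference of 12 h from 6 h was -0.47 for miR-505, 0.0093 for miR-31 and 0.040 for miR-203.

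Levels below are scaled signals, that is, background-subtracted spot intensities after each array was brought to a common 75th percentile, and differences are log2 differences of these. Probes differ in brightness for the same amount of RNA, so a level of 1 miRNA is not set against that of another. In bulk tissue, fewer cells of a type and less of a miRNA per cell cannot be told apart.

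miR-505 was measured by 1 of its 4 probes, which was detected on 13 of 15 arrays, while the other 3 were detected on none. In EtOH livers the scaled signal was 16.73, 13.56 and 13.32 in the 3 pools before PHx, then 16.36 at 1 h, 17.01 at 6 h, 12.55 at 12 h and 10.23 at 24 h. In CHO livers it was 14.84, 13.97, 15.18 and 14.09 in the 4 pools before PHx, then 13.55 at 1 h, 17.1 at 6 h, 12.31 at 12 h and 10.76 at 24 h. Both diets thus had their highest miR-505 level after surgery at 6 h and their lowest at 24 h, and at 12 and 24 h each pool lay below all pools before PHx of its diet, as did CHO at 1 h. The probe was not well above background on EtOH before PHx replicate 3 and on CHO 24 h, with 1 of 5 spots above it on each. The CHO 24 h level is therefore a bound, at least 1.34-fold lower than CHO livers before PHx. All levels stayed above the floor of 9.61 that was set on the scaled signal. Here and for miR-31 and miR-203 below, a pool lying below all pools before PHx is a description only. The share of all tested miRNAs with such a position is not given, so nothing is read from it.

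Averaged over the diets, miR-505 differed from the livers before PHx by 0.040 at 1 h, 0.24 at 6 h, -0.22 at 12 h and -0.46 at 24 h on the log2 scale. The EtOH and CHO changes were 0.18 and -0.099 at 1 h, 0.23 and 0.24 at 6 h, -0.20 and -0.24 at 12 h, and -0.50 and -0.43 at 24 h. The CHO change at 24 h, and so the average there, includes the level that was not well above background. miR-505 thus had negative averages at 12 and 24 h and positive ones at 1 and 6 h, and with the pool as a replicate block the average at 1 h was -0.0819. Without EtOH before PHx replicate 3 the averages were 0.0102 at 1 h, 0.21 at 6 h, -0.25 at 12 h and -0.49 at 24 h. Before PHx, miR-505 averaged 14.5 ± 1.91 in EtOH livers (SD, n = 3) and 14.5 ± 0.584 in CHO livers (SD, n = 4).

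miR-31 was detected by both of its probes on all 15 arrays. In EtOH livers the scaled signal of its brighter probe was 316.9, 351.7 and 357.1 before PHx, then 317.5 at 1 h, 335.8 at 6 h, 341.2 at 12 h and 273.3 at 24 h. In CHO livers it was 307.9, 325.7, 329.2 and 288.4 before PHx, then 261.6 at 1 h, 304.4 at 6 h, 267.5 at 12 h and 257.5 at 24 h. In EtOH livers only the 24 h pool lay below all pools before PHx, and in CHO livers the pools of 1, 12 and 24 h did. The mean change over the diets was -0.18 at 1 h, -0.031 at 6 h, -0.11 at 12 h and -0.30 at 24 h. At 12 h the change was -0.0009 in EtOH and -0.22 in CHO, and at 24 h it was -0.32 in EtOH and -0.28 in CHO. Without EtOH before PHx replicate 3 the mean changes were -0.16 at 1 h, -0.0144 at 6 h, -0.096 at 12 h and -0.28 at 24 h.

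miR-203 was detected by its brighter probe on all 15 arrays and by its second probe on 14. In EtOH livers the scaled signal was 36.04, 33.06 and 35.13 before PHx, then 31.29 at 1 h, 32.29 at 6 h, 30.84 at 12 h and 34.14 at 24 h. In CHO livers it was 27.67, 28.05, 28.7 and 36.21 before PHx, then 24.15 at 1 h, 22.69 at 6 h, 28.43 at 12 h and 33.92 at 24 h. In EtOH livers the pools of 1, 6 and 12 h lay below all pools before PHx, and in CHO livers those of 1 and 6 h did. Among the CHO pools before PHx, replicate 4 stood above the other 3, and it came from the same animals as the high CHO 24 h pool. The mean change over the diets was -0.23 at 1 h, -0.25 at 6 h, -0.12 at 12 h and 0.077 at 24 h, so miR-203 was not lower at 24 h in this average. These were -0.23, -0.25, -0.12 and 0.0815 without EtOH before PHx replicate 3.

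**Figure D1:**
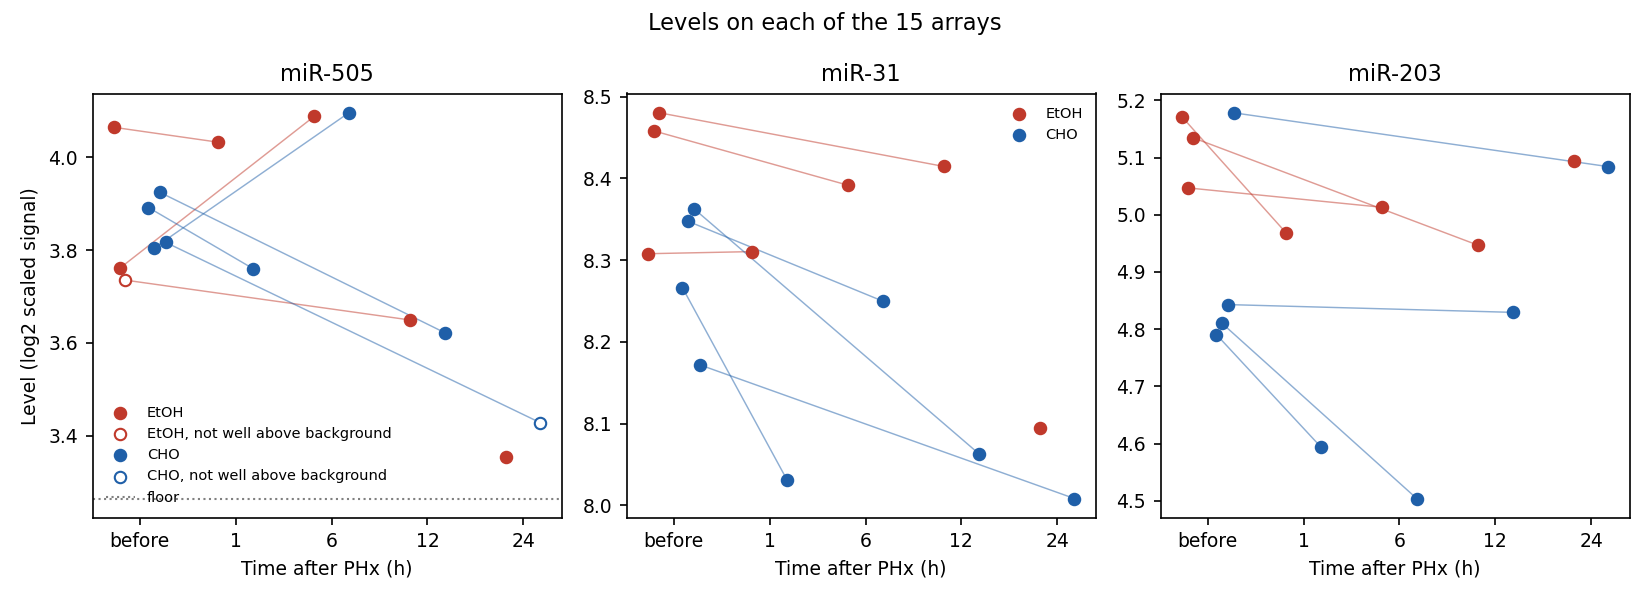
Log2 scaled signal of each miRNA on each of the 15 arrays (vertical axis, a separate range in each panel) by time relative to PHx (horizontal axis, evenly spaced categories), EtOH in red to the left and CHO in blue to the right of each time. Lines join the arrays before and after PHx of the same 4 animals, open points were not well above background, and the dotted line is the floor. miR-505 has its highest arrays at 6 h and its lowest at 24 h, miR-31 has its lowest CHO level at 24 h, and miR-203 has its lowest arrays in CHO at 1 and 6 h.

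The 3 miRNAs were ordered over the 10 groups of diet and time, and each gap between neighbours was set beside the spread between pools. The spread between pools before PHx (5 degrees of freedom) was 0.12 for miR-505, 0.090 for miR-31 and 0.15 for miR-203 on the log2 scale, as an SD, and 0.12, 0.093 and 0.16 without EtOH before PHx replicate 3 (4 degrees of freedom). For miR-505 the CHO 24 h group was left out of the order, since its level is a bound. Over the other 9 groups, from the highest to the lowest, miR-505 ran from CHO 6 h over EtOH 6 h, EtOH 1 h, CHO before PHx, EtOH before PHx, CHO 1 h, EtOH 12 h and CHO 12 h to EtOH 24 h. Of its 8 gaps between neighbours 2 were wider than the spread, 0.17 between EtOH 1 h and CHO before PHx and 0.27 between CHO 12 h and EtOH 24 h. Without EtOH before PHx replicate 3, whose miR-505 spots were not well above background, the EtOH mean before PHx was 3.91, above the CHO mean of 3.86 on the log2 scale. miR-31 ran from EtOH before PHx over EtOH 12 h, EtOH 6 h, EtOH 1 h, CHO before PHx, CHO 6 h, EtOH 24 h, CHO 12 h and CHO 1 h to CHO 24 h. Its 4 highest groups were all EtOH, and 1 gap, 0.16 between CHO 6 h and EtOH 24 h, was wider than the spread. Without EtOH before PHx replicate 3 the EtOH mean of miR-31 before PHx was 8.38, below EtOH 12 h (8.41) and EtOH 6 h (8.39) on the log2 scale. miR-203 ran from EtOH before PHx over EtOH 24 h, CHO 24 h, EtOH 6 h, EtOH 1 h, EtOH 12 h, CHO before PHx, CHO 12 h and CHO 1 h to CHO 6 h. Here too 1 gap exceeded the spread, 0.24 between CHO 12 h and CHO 1 h, and the other 8 gaps did not. The spread is that of a single pool, and a difference of 2 pools varies more. A gap wider than it therefore does not show that neighbours are separated, and no gap was tested.

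Liver taken after and before surgery from the same 4 animals could be compared in 7 pools. miR-203 was lower after PHx in 7 of 7 pools, with a median change of -0.19 and a range of -0.31 to -0.014. By time it changed by -0.20 in EtOH and -0.20 in CHO at 1 h, by -0.034 and -0.31 at 6 h, by -0.19 and -0.014 at 12 h, and by -0.094 in CHO at 24 h. Against its own animals the CHO 24 h pool was thus lower after PHx, at 33.92 against 36.21 before PHx. Of the 134 tested miRNAs 2 were lower in all 7 pools, or 1.49%, and the other was miR-27b. These contrasts chose the members, so nothing is read from that share.

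miR-31 was lower after PHx in 6 of 7 pools, with a median of -0.098. It changed by 0.0025 in EtOH and -0.23 in CHO at 1 h, by -0.067 and -0.098 at 6 h, by -0.066 and -0.30 at 12 h, and by -0.16 in CHO at 24 h. At each of the 3 times with both diets the change in CHO was the more negative one, and this order was not tested. Among the 134 tested miRNAs 8.21% were lower in 6 or more of the 7 pools. miR-505 was lower in 5 of 7 pools, with a median of -0.086, where 14.2% of the tested miRNAs were lower in 5 or more. It was higher after PHx in both 6 h pools, by 0.33 in EtOH and 0.29 in CHO, and it changed by -0.032 in EtOH and -0.13 in CHO at 1 h and by -0.086 and -0.30 at 12 h. In the CHO 24 h pool it was at least 1.298-fold lower after PHx, a bound because the array after PHx was not well above background. Without the EtOH 12 h pool, whose array before PHx stood apart, the counts of pools with a lower level were 6 of 6 for miR-203, 5 of 6 for miR-31 and 4 of 6 for miR-505.

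**Figure D2:**
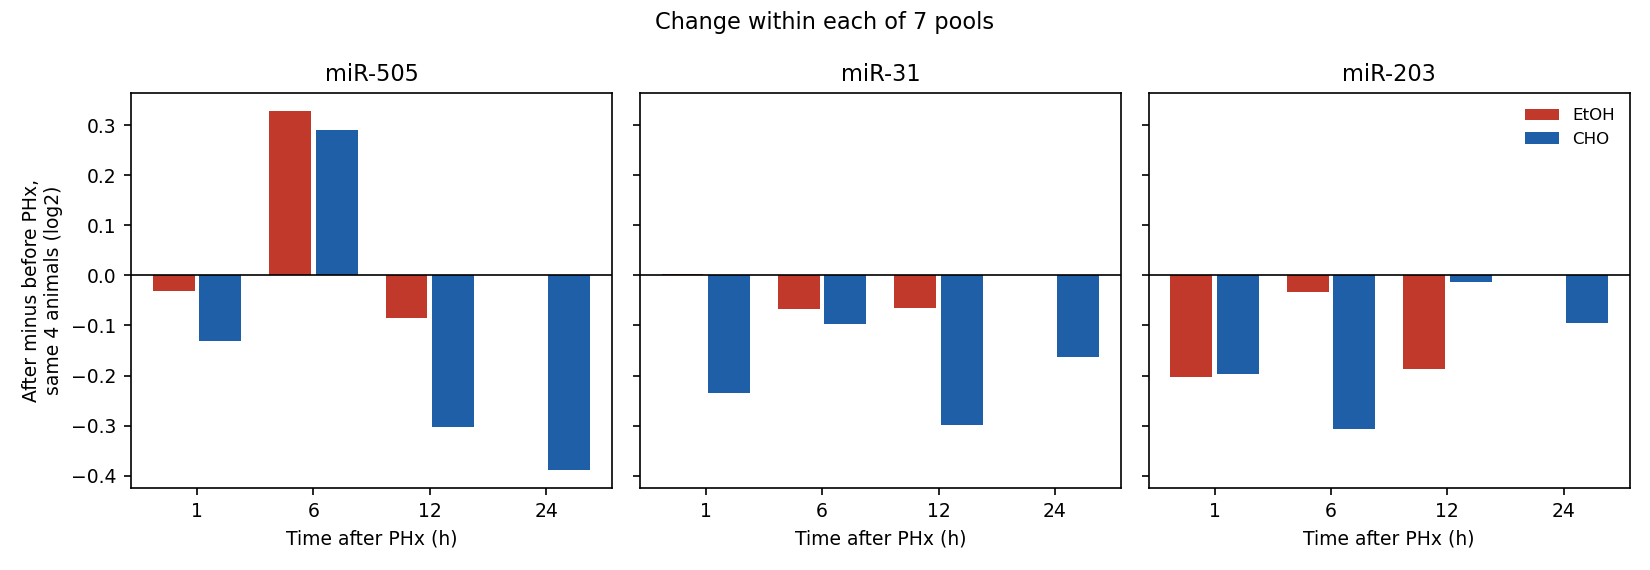
Log2 change within each pool (vertical axis), the array after PHx minus the array before PHx of the same 4 animals, by time after PHx in hours (horizontal axis), EtOH in red left of CHO in blue. There is no EtOH bar at 24 h, since that pool's array before PHx was not analysed, and the EtOH bar of miR-31 at 1 h is too close to 0 to be seen. The 7 bars of miR-203 all point down, while miR-505 points up in both 6 h pools. Its CHO bar at 24 h is the measured difference to a level that was not well above background, and its EtOH bar at 12 h starts from such a level before PHx.

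The 24 h changes differed between fits with and without the pool as a replicate block. With it, the 24 h change was -0.33 for miR-505, -0.080 for miR-31 and -0.079 for miR-203. Without such a block the 24 h change was -0.46 for miR-505, -0.30 for miR-31 and 0.077 for miR-203. In the blocked fit the EtOH 24 h pool has no partner and adds nothing to the value. That value rests on the CHO 24 h pair and a diet term from pools of earlier times. The CHO 24 h pair alone gave -0.39 for miR-505, -0.16 for miR-31 and -0.094 for miR-203. Since the 2 fits use different arrays, their difference does not show what matching animals does. Single arrays moved the 24 h values as well. With the EtOH 24 h array left out, the change was -0.38 for miR-505, -0.21 for miR-31 and 0.24 for miR-203. For miR-505 the values that use the CHO 24 h array again include its level near background. With the CHO 24 h array left out, it was -0.55 for miR-505, -0.39 for miR-31 and -0.085 for miR-203.

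For the contrasts that chose the members, the values near the threshold were as follows, ordered by the unadjusted p of limma among miRNAs that were lower. Since these contrasts made the choice, the calls and the order restate it and are no test of the members. At 24 h miR-505 (-0.46, SE 0.0995) and miR-31 (-0.30, SE 0.0844) were the 2 called lower, 1.49% of the tested miRNAs, and miR-150 (-0.37, SE 0.126) and miR-125b-5p (-0.23, SE 0.0894) were just outside. At 1 h no tested miRNA was called in either direction (0.0%; 4 had an unadjusted p under 0.05). There miR-31 (-0.18, SE 0.0844) and miR-203 (-0.23, SE 0.12) came first, followed by miR-100 (-0.19, SE 0.1) and miR-17 (-0.15, SE 0.0811). At both times the last member and the first miRNA outside differed by less than 1 standard error.

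The log2 difference between 12 h and 6 h used none of the arrays that chose the members. Its SE, interval and p do, since they rest on the spread over all 15 arrays. In both diets miR-505 was lower at 12 h, 12.55 against 17.01 in EtOH and 12.31 against 17.1 in CHO. The log2 difference was -0.46 (SE 0.124, 95% interval -0.73 to -0.18), with an adjusted p of 0.278 from limma, so it did not pass at an adjusted p under 0.05. Of the 134 tested miRNAs 0 passed (0.0%), and 9 had an unadjusted p under 0.05, miR-505 among them (0.00351). The 6 h arrays were on slide 1 and the 12 h arrays on slide 2. With slide as a block, which the arrays before PHx on both slides allow and which brings them into the value, miR-505 differed by -0.40 (adjusted p 0.850). miR-31 differed by -0.082 (SE 0.105, adjusted p 0.933). miR-203 differed by 0.13 (SE 0.149, adjusted p 0.920), and by -0.0067 with slide as a block.

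The diets were compared before and after surgery, which bears on how the members stood under long ethanol feeding. Before PHx, miR-203 averaged 34.7 ± 1.52 in EtOH livers (SD, n = 3) and 30.2 ± 4.06 in CHO livers (SD, n = 4). miR-31 averaged 342 ± 21.8 in EtOH livers and 313 ± 18.8 in CHO livers. For both miRNAs the groups overlapped, since CHO replicate 4 was the highest miR-203 array before PHx and EtOH replicate 1 of miR-31 lay within the CHO range. None of the 3 members passed, where 15.7% of the tested miRNAs did. The log2 differences were 0.21 for miR-203 (SE 0.114, 95% interval -0.038 to 0.46, adjusted p 0.253), 0.13 for miR-31 (SE 0.0802, 95% interval -0.048 to 0.30, adjusted p 0.361) and -0.0058 for miR-505 (SE 0.0946, 95% interval -0.21 to 0.20, adjusted p 0.997). A two-sided exact permutation test of 3 against 4 pools, which cannot go below a p of 0.0571, gave p = 0.229 for miR-203, 0.171 for miR-31 and 1.00 for miR-505. Without CHO replicate 4, miR-203 differed by 0.30 with an adjusted p of 0.0706. Without EtOH replicate 3 the differences were 0.20 for miR-203 (adjusted p 0.337), 0.096 for miR-31 (adjusted p 0.4863) and 0.0533 for miR-505 (adjusted p 0.7401), all from limma.

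After PHx, miR-31 and miR-203 were higher in EtOH than in CHO at 4 of 4 times, miR-203 at 24 h by only 0.0093. The second probe was higher in EtOH at 4 of 4 times for miR-31 and at 2 of 4 for miR-203. The share of all tested miRNAs higher at 4 of 4 times is not given. By the brighter probes, miR-31 was at 317.5 in EtOH and 261.6 in CHO at 1 h, and miR-203 at 32.29 in EtOH and 22.69 in CHO at 6 h. Averaged over the 4 times, miR-31 differed by 0.21 (SE 0.0742, 95% interval 0.051 to 0.38), with an unadjusted p of 0.0145 and an adjusted p of 0.0804 from limma. miR-203 differed by 0.25 (SE 0.105, 95% interval 0.021 to 0.48), with an unadjusted p of 0.0351 and an adjusted p of 0.141. miR-505 differed by 0.055 (95% interval -0.14 to 0.25, adjusted p 0.705). Thus 0 of 3 members passed where 7.46% of the tested miRNAs did. Without EtOH before PHx replicate 3, which changes only the estimated spread of this contrast, miR-31 passed with an adjusted p of 0.0485, in a fit that called 24.6% of the tested miRNAs.

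By slide, the miR-203 difference after PHx was 0.44 on slide 1, which holds the 1 and 6 h pools (adjusted p 0.0145), and 0.063 on slide 2 with the 12 and 24 h pools (adjusted p 0.928). Slide and time cannot be told apart in that split. These fits called 19.4% of the tested miRNAs on slide 1 and 0% on slide 2. For miR-31 it was 0.21 on slide 1 and 0.22 on slide 2, with adjusted p of 0.107 and 0.521. Before PHx, miR-203 differed by 0.31 within slide 1 (adjusted p 0.0354) and miR-31 by 0.076, in a fit that called 27.6% of the tested miRNAs. Within slide 2 the differences before PHx were 0.12 for miR-203 and 0.21 for miR-31. Slide 2 holds only 1 EtOH array before PHx, replicate 3, which stood apart, beside CHO replicates 3 and 4. CHO replicate 4 was the highest miR-203 array before PHx, so the slides are not compared for this difference. miR-505 differed after PHx by 0.13 within slide 1 and by -0.023 within slide 2.

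At single times each diet had 1 pool, and the fit lends them the spread of the replicated groups. The EtOH minus CHO difference of miR-203 was 0.37 at 1 h, 0.51 at 6 h, 0.12 at 12 h and 0.0093 at 24 h. That of miR-31 was 0.28, 0.14, 0.35 and 0.086 at the same times. That of miR-505 was 0.27, -0.0075, 0.027 and -0.073. Of these 12 differences 0 passed with limma, against 0.746% of the tested miRNAs at 1 h, 0.0% at 6 h (18 with an unadjusted p under 0.05), 3.73% at 12 h and 0.0% at 24 h (7 with an unadjusted p under 0.05). The difference between diets did not change detectably from before to after PHx either, by 0.040 for miR-203, 0.086 for miR-31 and 0.0605 for miR-505, with adjusted p of 0.974, 0.880 and 0.932. There 0 of the 134 tested miRNAs passed (0.0%; 9 had an unadjusted p under 0.05).

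**Figure D3:**
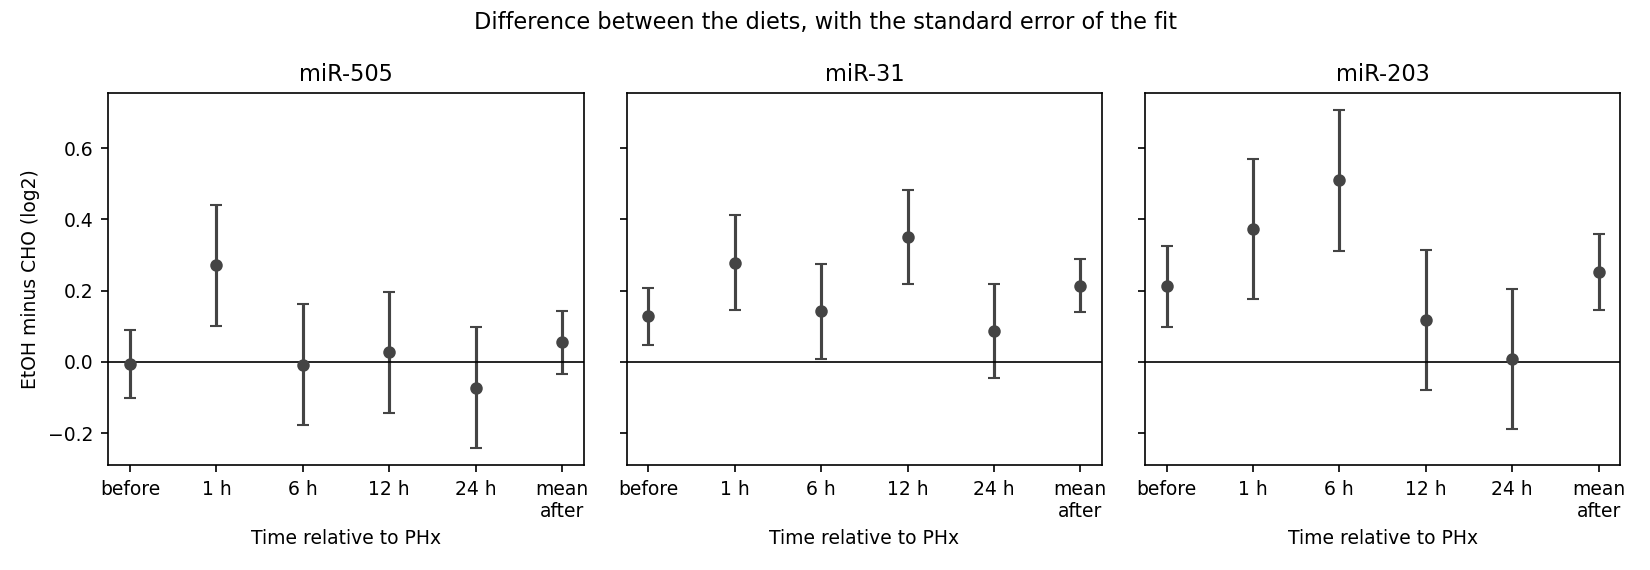
EtOH minus CHO log2 difference of each miRNA (vertical axis) before PHx, at each time after PHx and averaged over the 4 times after PHx (horizontal axis). Points are fitted differences and bars 1 standard error of the fit, in which single pools borrow the spread of the replicated groups. For miR-31 and miR-203 all points lie above 0, and for miR-505 they lie on both sides of it.

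The probes of a member were set against each other, since only the brightest stands for it above. The second probe of miR-31 had scaled signals between 135.7 and 254.1, and it was lower after PHx in 7 of 7 pools, with a median of -0.12. Its changes were -0.28 at 1 h, -0.14 at 6 h, -0.18 at 12 h and -0.32 at 24 h, each in the same direction as the brighter probe. Its highest value, 254.1, was on EtOH before PHx replicate 3. The second probe was higher in EtOH than in CHO at 4 of 4 times, by 0.19 on average.

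For miR-203 the probes did not behave alike. The second probe was dimmer, between 11.62 and 18.6, and lower after PHx in 5 of 7 pools, with a median of -0.034. Its changes were -0.052 at 1 h, -0.0925 at 6 h, 0.0475 at 12 h and 0.29 at 24 h. Its lowest value, 11.62, again fell on EtOH before PHx replicate 3, where its spots scattered by 70.9% and it was not detected. It was higher in EtOH at 2 of 4 times, and before PHx its diet difference was -0.035 where that of the brighter probe was 0.21. Both probes had their highest value on CHO before PHx replicate 4, where the second probe read 18.6, and it read 18.36 on CHO 24 h.

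A single spot also bore on miR-203. On the CHO 1 h array, 1 spot of the brighter probe read 1389 where the median of the others was 29.24, 47.5 times as high. The scanner software marked it as an outlier and it was left out. With marked spots kept, the 1 h change of miR-203 was 1.04 instead of -0.23. Of the members' brightest probes 10 spots were left out in this way, 5 of miR-203, 4 of miR-31 and 1 of miR-505, and the other 9 lay between 0.689 and 1.12 times the median of their probe.

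**Figure D4:**
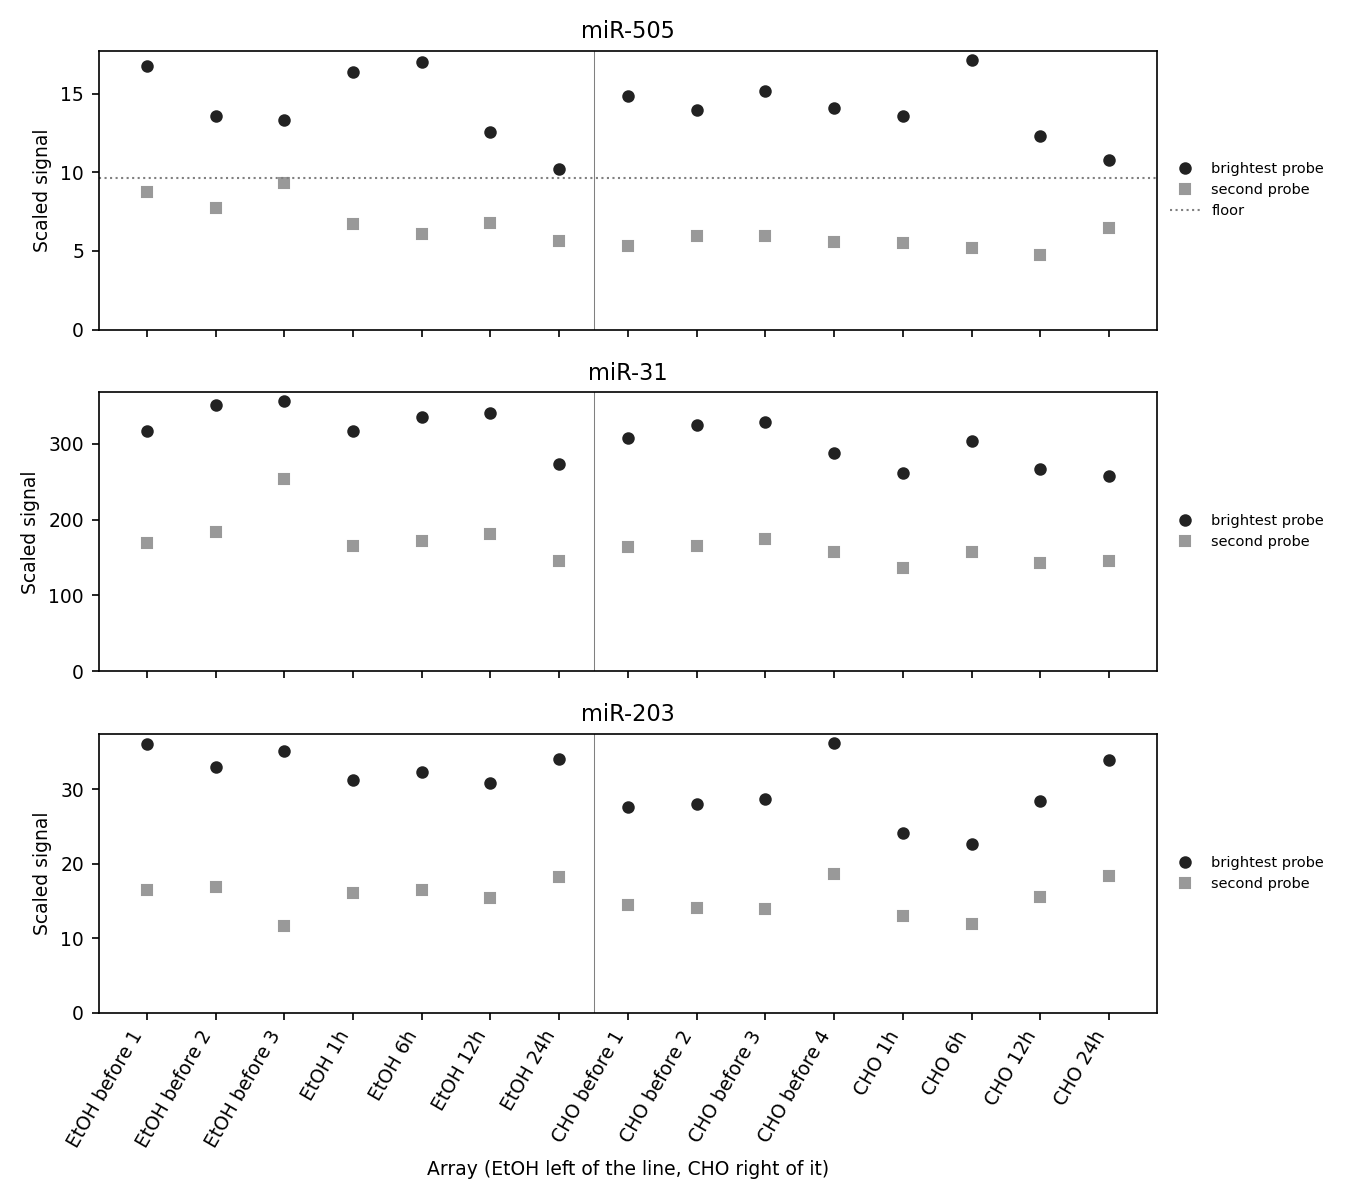
Scaled signal (vertical axis, starting at 0) of the brightest probe (black circles) and the second probe (grey squares) of each miRNA on each array (horizontal axis), EtOH arrays left of the line and CHO arrays right of it. The second probe of miR-505 lies below the floor (dotted) on all 15 arrays, and on EtOH before 3 the second probe is at its highest for miR-31 and at its lowest for miR-203.

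The miRNAs whose level followed a member most closely over the 15 arrays were looked up by Pearson's r of log2 levels among the other 133 tested miRNAs. The arrays share diets, animals and slides, so these are descriptions of likeness. For miR-505 they were miR-23b (0.77), miR-146a (0.64) and miR-378* (0.61), with miR-106b at the opposite end (-0.69). For miR-31 they were miR-152 (0.73), miR-30a* (0.72) and miR-96 (0.71), with miR-532-5p at the opposite end (-0.84). For miR-203 they were miR-194 (0.71), miR-193 (0.69) and miR-378 (0.67), with miR-196b at the opposite end (-0.81). Under quantile normalization miR-532-5p was at -0.37 with miR-31 and miR-106b at -0.15 with miR-505, so these 2 low values depend on the scaling, and miR-196b was at -0.65 with miR-203. miR-96 was detected on 7 arrays and at the floor on 10, and miR-196b was detected on 6 and at the floor on 5, so their r rests partly on floored values. The closest partners depend on the scaling too. Under quantile normalization miR-23b ranked 20 of 133, miR-146a 9 and miR-378* 2 for miR-505, miR-152 ranked 2, miR-30a* 3 and miR-96 11 for miR-31, and miR-194 ranked 9, miR-193 1 and miR-378 12 for miR-203. Without EtOH before PHx replicate 3 the 9 partners ranked between 1 and 8, and the 3 at the opposite end ranked 133, 133 and 132.

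Among themselves the members had r of 0.48 between miR-505 and miR-31, 0.20 between miR-31 and miR-203 and -0.26 between miR-505 and miR-203 over the 15 arrays. In the same order they were 0.53, 0.34 and 0.37 under quantile normalization. In the authors' deposited table they were 0.57, 0.08 and 0.49. The sign of the last thus depends on the processing. The 3 values were 0.56, 0.105 and -0.25 without EtOH before PHx replicate 3. miR-505 and miR-31 were both chosen for lower levels at 24 h, and miR-31 and miR-203 at 1 h. The same arrays enter these r, so the choice itself bears on them.

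miR-203 and miR-31 are known from epithelia, and so the miRNAs of biliary and other epithelium were read beside them. Of 9 such miRNAs on the array 4 were tested. Before PHx miR-200a (-0.45, adjusted p 0.0167) and miR-200b (-0.57, adjusted p 0.0152), of the family that maintains the epithelial state, fell in EtOH, as 12.7% of the tested miRNAs did. miR-96 rose, as 2.99% did (adjusted p 0.0244). It was not well above background on any CHO array before PHx, so its level in EtOH is given as at least 1.496-fold higher. miR-429 (-0.080) did not pass. Their median was -0.26 before PHx, beside -0.075 over all tested miRNAs, and 0.025 after PHx beside -0.051. At 1 and 24 h after PHx 0 of the 4 passed, with medians of 0.084 and -0.058 beside 0.0008 and 0.019 over all tested miRNAs. Their part in the values of miR-203 and miR-31 was not tested.

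A list of 16 other miRNAs known for restraining proliferation, among them let-7a, miR-26a, miR-29a and miR-34a, was read beside the members, and all 16 were tested. At 24 h after PHx 2 rose, miR-34a and miR-29b, and 0 fell, where 11.9% of the tested miRNAs rose and 1.49% fell. The median of the list was 0.0096 at 24 h, beside 0.019 over all tested miRNAs, and -0.018 at 1 h beside 0.0008. Between the diets 0 of 16 passed before PHx, and after PHx miR-34a alone rose in EtOH (0.95, adjusted p 0.0416), as 2.99% of the tested miRNAs did.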

How the data were processed

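Per the file headers, the deposited scanner files give spot intensity from Agilent Feature Extraction (10.5.1.1, or 10.7.3.1 per the submitters' processing notes), linear and already corrected for local background. A second file is the authors' deposited table of log2 values per miRNA; how it was made is unknown here, so it served only as an alternative.

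Spots marked as outliers were left out (2.38%). Each array's mean probe signals were scaled to a common 75th percentile, taken over 185 probes detected on every array, floored at 9.61 and put on the log2 scale. The brightest probe stood for a miRNA, and 134 miRNAs detected on at least 3 arrays were tested (216 were not). limma 3.58.1 in R 4.3.3 fitted all 15 arrays with 1 diet term for either side of PHx and 1 term per time (8 residual degrees of freedom). Single times and changes within a diet came from a fit of 10 diet-by-time cells (5 degrees of freedom). P-values were adjusted by Benjamini-Hochberg over 134 miRNAs per contrast and called under 0.05. Permutation tests used scipy 1.17.1. The fit was run on simulated data with independent noise and diet differences before PHx of 1 log2 unit. These are larger than those of the members, so the simulation does not show how the fit handles differences of their size.

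Animal identifiers in the labels pair the arrays before and after PHx. Pools, not animals, were measured, and the number of arrays limits the precision. P-values rest on the spread between pools before PHx. In the fit with 1 term per time they also rest on how the diet difference varied between the times after PHx. That is not a spread between replicates. Unless the pool was a block, arrays of the same animals were treated as independent. Slides were read from the array identifiers. Without a mean signal in the files, the normexp alternatives used the median signal. The members and the lists were chosen with earlier results of these data known. The text names the members, the 3 tested miRNAs most like each and the 1 least like it, the 2 nearest outside the rule at 24 h and at 1 h, examples of the lists, and miR-122. miR-27b was named outside this rule, after its values were seen. The spread and the likeness without EtOH before PHx replicate 3 were added after seeing the data. Alternatives changed the scaling, background, spot and probe summary, filter, floor, slide, pairing and arrays.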

Additional observations from a re-analysis of the deposited data

Results flagged for a closer look

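Among the 4 CHO pools before PHx, replicate 4 stood far above the others for miR-203, with a scaled signal of 36.21 where the others had 27.67, 28.05 and 28.7. Its gap to the nearest of them was 0.865 of the range of the group on the log2 scale, above the critical value for 4 values. This was looked for in 3 groups of 4, 1 for each member, and chance marks about 1 group in 20.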

How the results depend on the processing

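Of the members, 0 passed for diet before PHx except 1 without scaling (miR-505, where 56.7% of all tested miRNAs passed) and 1 on slide 1 alone (miR-203, 27.6%). For diet after PHx 1 passed with total signal per miRNA (miR-31, adjusted p 0.0434, beside 20.1% of all), when all probes set the 75th percentile (miR-31, 0.46, adjusted p 0.0182, 4.48%), on slide 1 alone (miR-203, 19.4%) and without EtOH before PHx replicate 3 (miR-31, 24.6%). At single times 2 passed with normexp (miR-203 and miR-505 at 24 h, 82.8%) and 1 with outlier spots kept (miR-203 at 1 h, 2.24%). For the change in the diet difference and for 12 h against 6 h, 0 passed under each alternative run. The cause of these shifts was not tested. With either replicate block (pool, or set of pair-fed pools) no call changed. With the pair-fed set as a replicate block the diet differences before PHx were -0.020 for miR-505, 0.090 for miR-31 and 0.30 for miR-203, and with the pool as a replicate block the changes in the diet difference were 0.12, 0.17 and 0.030.

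The signs of tested differences turned as follows, apart from single arrays left out. For diet before PHx, miR-505 was 0.0546 when all probes set the 75th percentile, 0.63 with normexp, 0.36 with normexp and 1 background value per array, 0.11 with the median over spots, 0.0195 with outlier spots kept, 0.13 with total signal, 0.32 in the authors' deposited table and 0.0645 on slide 1 alone. Without scaling, diet before PHx was -0.40 for miR-31 and -0.32 for miR-203. Diet after PHx was -0.55 (miR-505) and -0.38 (miR-203) with normexp, -0.0229 for miR-505 on slide 2 alone, and -0.38 for miR-203 with outlier spots kept. The change in the diet difference was -1.18 (miR-505), -0.0526 (miR-31) and -0.94 (miR-203) with normexp, -0.33 (miR-505) and -0.25 (miR-203) with 1 background value, -0.0204 for miR-505 with the median over spots, and for miR-203 -0.60 with outlier spots kept, -0.0604 on slide 2 alone and -0.0507 with the pair-fed set as a replicate block. The difference of 12 h from 6 h was 0.16 for miR-31 without scaling, and for miR-203 -0.0066 with quantile normalization, -0.12 with normexp, -0.0502 with 1 background value and -0.0067 with slide as a block.

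Among the untested changes against the liver before PHx, signs turned in these cases. For miR-505 the 1 h change was -0.24 with normexp, -0.13 with 1 background value, -0.0318 with total signal, -0.20 in the authors' deposited table, -0.0819 with either replicate block and -0.105 without EtOH 1 h, the 6 h change was -0.0157 with normexp and -0.074 in the authors' deposited table, and the 24 h change was 0.87 with normexp. For miR-31 without scaling it was 0.0358 at 1 h and 0.092 at 12 h, and 0.0179 at 6 h without EtOH 6 h. For miR-203 it was 1.04 at 1 h with outlier spots kept, 0.080 at 12 h without scaling, and at 24 h -0.089 with quantile normalization, -0.0556 with 1 background value, -0.0063 with total signal, -0.0023 with slide as a block, -0.0791 and -0.24 with the pool and the pair-fed set as a replicate block, and -0.085 without CHO 24 h.

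Leaving out single arrays gave 0 to 1 members called for diet after PHx and 0 for the other tests. It gave diet differences before PHx of -0.11 to 0.0533 (miR-505), 0.090 to 0.18 (miR-31) and 0.17 to 0.30 (miR-203), diet differences after PHx of -0.0178 to 0.097, 0.17 to 0.26 and 0.17 to 0.33, changes in the diet difference of -0.012 to 0.17, 0.032 to 0.13 and -0.0507 to 0.12, and 12 h against 6 h of -0.50 to -0.41, -0.17 to 0.0093 and -0.0416 to 0.30, in the same order. The pools with a lower level after PHx numbered 4 (no scaling) to 7 of 7 for miR-203, 5 to 7 for miR-31 and 3 to 6 for miR-505. A value within a single slide could not be had for 12 h against 6 h. The precision of miR-505 is limited by its closeness to background, with scaled signals of 10.23 to 17.1 over a floor of 9.61.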
